A study of Mus musculus with 8 samples.

Results

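Myeloid C-type lectin receptors were described by 9 genes, Clec4a2, Clec4d, Clec4e, Clec4n, Clec5a, Clec7a, Clec12a, Clec10a and Mgl2, taken by symbol from a table of 54188 genes. The RNA came from CD11b+Gr-1hi and CD11b+Gr-1lo cells, called G-MDSC and M-MDSC in the labels, sorted from the spleen (SP) and BM of sanroque mice. These mice are homozygous for the Roquin san allele (Roquin san/san) on a C57BL/6 background, were labelled female and were 20 weeks old. All 4 groups carry the mutation, so SP was compared with BM of the same genotype and no wild-type cells entered a comparison. Each group held 2 libraries, stated to be independent biological replicates, numbered 5 and 6 (SP Gr-1hi), 7 and 8 (SP Gr-1lo), 9 and 10 (BM Gr-1hi) and 11 and 12 (BM Gr-1lo). The study describes the BM cells as autologous, but the labels do not say which libraries share a mouse, so the groups were fitted as unrelated. All 9 genes passed the filter on low counts and were among the 17650 genes tested.

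C-type lectin receptors carry a lectin-like domain outside the cell, by which many of them recognise sugars or lipids of fungi, bacteria and dying cells. One set activates the cell through the kinase Syk and the adaptor CARD9: Clec7a (Dectin-1, a receptor of fungal beta-glucan) has a tyrosine motif of its own, Clec4n (Dectin-2, which binds mannans), Clec4e (Mincle, which binds mycobacterial cord factor) and Clec4d (MCL, its partner) signal through the Fc receptor gamma chain, and Clec5a (MDL-1) through the adaptor encoded by Tyrobp. Clec4a2 (DCIR) and Clec12a (MICL) carry an inhibitory motif that recruits phosphatases. Clec10a (MGL1) and Mgl2 bind galactose and N-acetylgalactosamine and are known from macrophages, dendritic cells and cells derived from monocytes.

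The genes lie in few places in the mouse genome (GRCm38). Chromosome 6 holds 7 of them and chromosome 11 the other 2. Clec4a2 (chr6:123106428-123143999, plus strand), Clec4n (chr6:123229843-123247021, plus strand), Clec4d (chr6:123262111-123275265, plus strand) and Clec4e (chr6:123281789-123289870, minus strand) follow one another, and Clec4d and Clec4e end 6523 bp apart, facing each other. Clec12a (chr6:129342691-129365303, plus strand) and Clec7a (chr6:129461591-129472779, minus strand) lie further along the same chromosome, and Clec5a (chr6:40574894-40585821, minus strand) lies apart from both groups. Mgl2 (chr11:70130329-70137550, plus strand) and Clec10a (chr11:70156197-70170834, plus strand) are neighbours 18646 bp apart. Of the 101-base stretches of their exons, 3.86% in Mgl2 and 2.58% in Clec10a were shared between these 2 genes, and 2.11% in Clec4a2 were shared with Clec4a4. A single read of that length there fits both genes, and whether pairs of reads could be assigned was not tested. No other member shared a stretch of 101 bases with another gene.

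RefSeq (GRCm38.p6) gave the sequence from 250 bases before to 50 bases after the start site for 7 members, and Clec4n and Clec10a had no entry. Promoters are shown for Clec4d and Clec4e, which were both far higher in Gr-1hi cells, for Clec7a, which was higher in SP than BM Gr-1hi cells, and for Mgl2, which was far higher in Gr-1lo cells. Each runs 5′ to 3′ on the strand of its gene. For Clec7a the first start means the first by coordinate, and its other window, chr6:129472736-129473035, lies upstream of it on the minus strand. Capitals mark GAGGAA (a core of sites for PU.1) and TTGCNNAA (a form of the C/EBP site), both searched on either strand, and no match of one overlapped a match of the other.
Clec4d, chr6:123261857-123262156, plus strand: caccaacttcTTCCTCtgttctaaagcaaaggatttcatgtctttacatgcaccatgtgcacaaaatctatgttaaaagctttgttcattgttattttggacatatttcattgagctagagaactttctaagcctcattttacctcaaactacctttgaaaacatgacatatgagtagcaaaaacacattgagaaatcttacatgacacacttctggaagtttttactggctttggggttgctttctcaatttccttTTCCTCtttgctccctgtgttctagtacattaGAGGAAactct
Clec4e, chr6:123289822-123290121, minus strand: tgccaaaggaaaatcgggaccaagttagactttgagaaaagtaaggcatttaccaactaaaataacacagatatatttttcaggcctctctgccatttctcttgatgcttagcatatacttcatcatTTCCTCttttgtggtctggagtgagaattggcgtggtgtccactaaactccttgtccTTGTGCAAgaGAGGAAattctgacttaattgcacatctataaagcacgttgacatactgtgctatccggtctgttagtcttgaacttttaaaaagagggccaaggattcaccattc
Clec7a, chr6:129472730-129473029, minus strand, the first of its 2 annotated starts: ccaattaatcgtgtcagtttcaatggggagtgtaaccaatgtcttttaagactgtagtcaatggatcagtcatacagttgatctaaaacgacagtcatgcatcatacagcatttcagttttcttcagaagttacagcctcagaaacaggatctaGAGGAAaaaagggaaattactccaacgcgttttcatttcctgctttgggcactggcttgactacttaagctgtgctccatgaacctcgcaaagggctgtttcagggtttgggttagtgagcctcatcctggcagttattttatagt
Mgl2, chr11:70130107-70130406, plus strand: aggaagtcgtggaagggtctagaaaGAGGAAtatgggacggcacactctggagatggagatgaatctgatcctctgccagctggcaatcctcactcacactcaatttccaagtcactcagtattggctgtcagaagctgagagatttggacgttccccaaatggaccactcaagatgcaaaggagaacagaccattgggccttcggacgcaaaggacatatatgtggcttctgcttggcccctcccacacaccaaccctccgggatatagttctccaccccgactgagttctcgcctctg
GAGGAA was found in 28.3% of 32851 mouse promoters of this length and in 6 of the 7 members with an entry, Clec4a2 being the exception. TTGCNNAA was found in 10.8% of promoters and in 2 members, Clec4e and Clec12a. In Clec4e the C/EBP-type match began 66 bases before the start site and a PU.1-type match 56 bases before it. These matches describe letters only and occupancy by any factor was not measured here.

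The libraries held 33453580 to 68316154 counts, at which 3 counts equal 0.0348 to 0.124 CPM (read counts scaled to library size with TMM factors). The gates matched their labels, since Ly6g (the Gr-1 antigen of neutrophils) stood at 330 to 801 CPM in the 4 Gr-1hi libraries and at 3.07 to 8.23 in the 4 Gr-1lo libraries, and Ccr2 (a monocyte chemokine receptor) at 6.73 to 38.6 and 1451 to 1826. The sex label was not borne out: Ddx3y, a Y-linked gene, was at 33.7 to 82.6 CPM in 7 of the 8 libraries, and Xist, which is expressed from an inactive X chromosome, was counted 12032 times in library 5 and 9898 times in library 7 but at most 5 times in each of the others. Library 7 held both transcripts, and libraries 5 and 7 had no BM library with Xist at their level. Results are therefore also given without libraries 5 and 7, which leaves each SP group with 1 library. That library is assumed to vary like the other groups. Between the 2 libraries of a group, the chi-square per degree of freedom was 66.67 in SP Gr-1hi cells. It was 20.96 in SP Gr-1lo, 21.29 in BM Gr-1hi and 18.88 in BM Gr-1lo cells. The assumption is thus doubtful for SP Gr-1hi cells. The fit over all libraries also pools the spread of the groups, so SE and adjusted p for SP Gr-1hi cells may be too small.

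Clec4d and Clec4e, partners in sensing cord factor, marked the Gr-1hi cells of both tissues. Clec4d stood at 491 and 400 CPM in SP Gr-1hi, 447 and 355 in BM Gr-1hi, 6.86 and 8.61 in SP Gr-1lo, and 5.74 and 3.65 in BM Gr-1lo. The Gr-1hi libraries did not overlap the Gr-1lo libraries, while SP and BM Gr-1hi libraries overlapped. Clec4d was 57.3-fold higher in Gr-1hi than Gr-1lo cells in SP (log2 FC 5.84, SE 0.26, adjusted p = 9.23e-07 from the edgeR quasi-likelihood test, Benjamini-Hochberg adjusted over all genes as throughout) and 85.7-fold higher in BM (6.42, SE 0.27, adjusted p = 3.18e-07, same test). It passed the threshold used for the subsets, an adjusted p below 0.01 and FC above 8, in both tissues. In bulk RNA, fewer cells that express a gene and less RNA per cell cannot be told apart. The level of Clec4d in Gr-1lo cells was 1.74% of that in Gr-1hi cells in SP and 1.17% in BM, and the 9 neutrophil genes ranged from 0.319% (Retnlg) to 32.95% (Camp) in SP and from 0.282% (Retnlg) to 9.28% (Camp) in BM. Among these, Ly6g was at 1.69% and 0.566% and Csf3r, the receptor of granulocyte colony-stimulating factor, at 4.38% and 5.70%, and the part that neutrophil RNA in the Gr-1lo libraries had in these low levels was not tested.

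Clec4e followed the same order with a smaller difference. It stood at 501 and 419 CPM in SP Gr-1hi, 468 and 475 in BM Gr-1hi, 70.7 and 77.5 in SP Gr-1lo, and 59.9 and 33.9 in BM Gr-1lo. Again the 2 Gr-1hi groups overlapped, and every Gr-1lo library lay far below them. The Gr-1hi to Gr-1lo difference was 3.33 in log2 FC in BM (SE 0.25, adjusted p = 5.59e-06 by edgeR) and 2.63 in SP (SE 0.24, adjusted p = 2.59e-05 by edgeR), the latter short of FC 8. Library 12 decided the BM call, for without it the log2 FC was 2.95. In Gr-1lo cells the SP libraries lay above the BM libraries for both genes, with log2 FC of 0.73 for Clec4d (SE 0.23, adjusted p = 0.131 by edgeR) and 0.66 for Clec4e (SE 0.23, adjusted p = 0.164 by edgeR), neither of which passed. Without library 11 the value of Clec4e was 1.13 and passed (adjusted p = 0.00866 by edgeR). Over the 8 libraries the log2 CPM of Clec4d and Clec4e had a Pearson r of 0.99, a description in which each library contributes both values.

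Within a library, the ratio of the 2 transcripts differed between the subsets. Per kilobase of exon, Clec4d was at 3.0 ± 0.0578 times the level of Clec4e in SP Gr-1hi cells (SD, n = 2) and at 2.65 ± 0.455 times in BM Gr-1hi cells. In Gr-1lo cells the ratio was 0.323 ± 0.0308 in SP and 0.316 ± 0.0263 in BM. Thus, per kilobase, Clec4d was the more abundant of the pair in Gr-1hi libraries and the less abundant in Gr-1lo libraries, with no overlap. The lengths pool all transcripts of a gene, 1599 bases for Clec4d and 4965 for Clec4e. By CPM, which uses no lengths, Clec4d was below Clec4e in every library. The shift of the ratio between the subsets does not depend on the lengths, but which gene leads in Gr-1hi cells does. Since both levels come from 1 library, its depth cancels from the ratio.

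**Figure D1:**
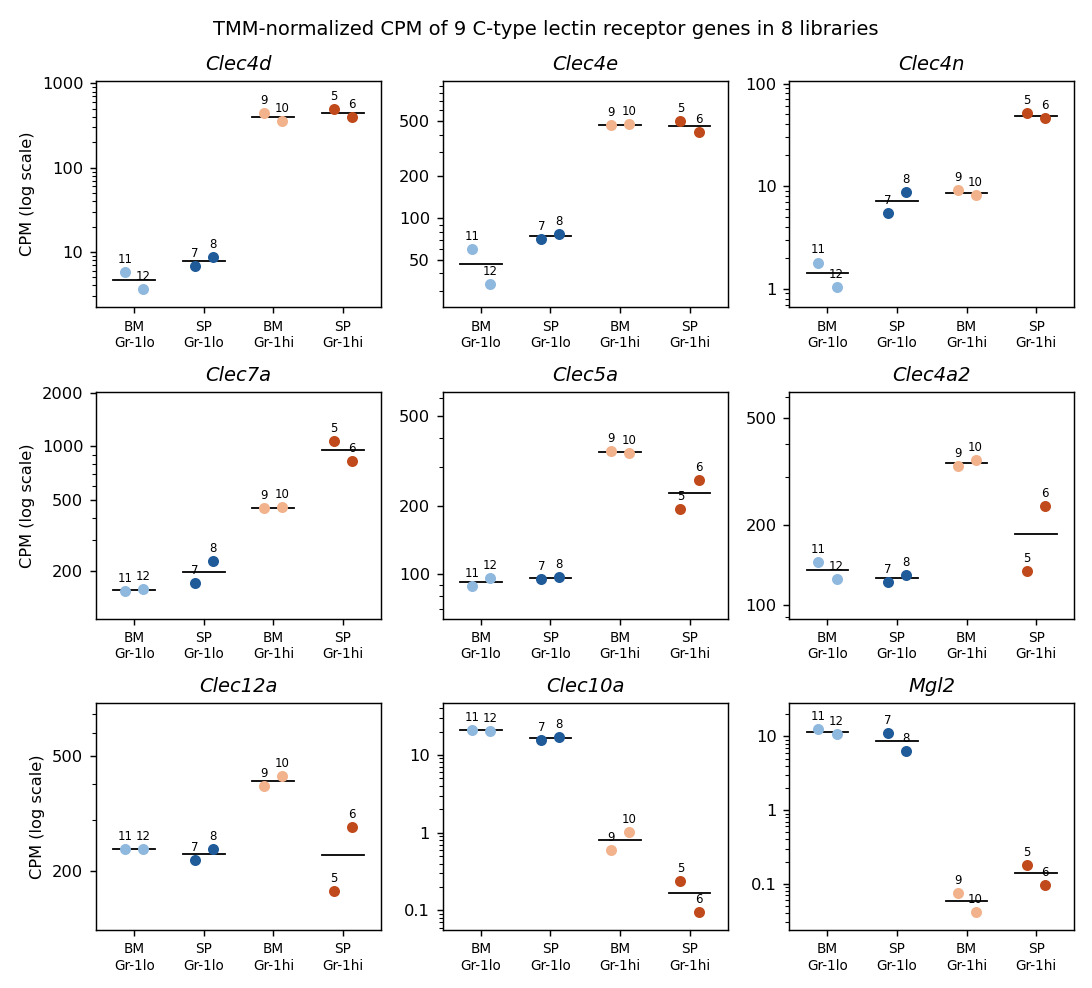
TMM-normalized CPM (log scale, 1 panel per gene with its own axis) in BM and SP Gr-1lo and Gr-1hi cells. Points are libraries with their label number and lines are group means (n = 2). Clec4d and Clec4e lie high in all 4 Gr-1hi libraries, Clec10a and Mgl2 high in all 4 Gr-1lo libraries, and Clec4n is higher in SP than in BM in both subsets.

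Clec4n was the member that passed the threshold between SP and BM in both subsets. It stood at 51.2 and 45.9 CPM in SP Gr-1hi against 9.08 and 8.13 in BM Gr-1hi. In Gr-1lo cells it stood at 5.42 and 8.79 CPM in SP against 1.80 and 1.04 in BM. The SP libraries lay above the BM libraries in each subset, and the ranges of SP Gr-1lo and BM Gr-1hi overlapped. Clec4n was 5.63-fold higher in SP than BM in Gr-1hi cells (log2 FC 2.49, SE 0.26, adjusted p = 0.000491 by edgeR) and 5.07-fold higher in Gr-1lo cells (2.34, SE 0.29, adjusted p = 0.00289 by edgeR). The difference between these 2 effects was 0.15 in log2 (SE 0.39, adjusted p = 0.826 by edgeR), and its sign turned without library 5, 7, 10 or 11. Without libraries 5 and 7 the log2 FC of Clec4n was 2.43 in Gr-1hi and 2.62 in Gr-1lo cells, and both passed.

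Between SP and BM Gr-1hi cells, 2 members passed as higher and 1 as lower (adjusted p up to 0.05, FC of 2 or more), when 15.5% of all genes tested passed (14.0% higher and 1.48% lower). Between SP and BM Gr-1lo cells 1 of 9 passed, Clec4n, when 4.06% of all genes passed (3.84% higher and 0.215% lower). The median log2 FC of the members was -0.03 in Gr-1hi cells and 0.06 in Gr-1lo cells, beside 0.03 and -0.01 over all genes tested. Called members thus lay on both sides in Gr-1hi cells, and Clec4n was the only one of the 9 that passed in both subsets.

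Clec4n was not alone in its gene cluster, since Clec4a1 and Clec4a3 also passed as higher in SP than BM Gr-1hi cells (log2 FC 1.63 and 1.89). In Gr-1lo cells neither of these passed (0.47 and 0.49). The ratio of Clec4n to Clec4e, per kilobase of exon, was 0.370 ± 0.0180 in SP Gr-1hi (SD, n = 2), 0.332 ± 0.0908 in SP Gr-1lo, 0.0639 ± 0.00565 in BM Gr-1hi and 0.106 ± 0.00150 in BM Gr-1lo. The SP ratios were above the BM ratios in every library, whichever the subset. In Gr-1hi against Gr-1lo cells, Clec4n was 6.76-fold higher in SP (log2 FC 2.76, SE 0.26, adjusted p = 2.52e-05 by edgeR) and 6.08-fold higher in BM (2.61, SE 0.30, adjusted p = 6.34e-05 by edgeR), short of FC 8. Leaving out library 8 took the SP value to 3.14 and leaving out library 11 took the BM value to 3.02, both then past FC 8.

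Markers of other cells moved with the tissue as well. The summed level of 10 B cell genes was 360 to 537 CPM in SP Gr-1hi, 66.7 to 83.8 in SP Gr-1lo, 16.3 to 19.9 in BM Gr-1hi and 8.07 to 9.90 in BM Gr-1lo libraries. The gene whose log2 CPM was most like that of Clec4n over the 8 libraries, among genes with a mean of at least 10 CPM, was Bank1, a scaffold protein of B cells (r = 0.99). This was the highest r among 8596 genes compared, and it only describes 8 points that fall into 4 groups. Summed over 10 splenic macrophage genes, the level was 841 to 1012 CPM in SP Gr-1hi and 529 to 590 in BM Gr-1hi libraries, and over 10 dendritic cell genes 800 to 1095 and 138 to 188. Of the 10 dendritic cell genes, 6 passed as higher in SP than BM Gr-1hi cells (Flt3, Xcr1, Itgax, Ciita, H2-Ab1 and Cd74) and 1 as lower (Siglech), and Xcr1 and Itgax also passed as higher in SP Gr-1lo cells. The highest level in any library was 1768 CPM for Cd74, 609 for H2-Ab1, 168 for Ciita, 83.8 for Itgax, 6.45 for Flt3, 5.45 for Clec9a, 2.56 for Xcr1, 1.32 for Siglech, 1.21 for Zbtb46 and 0.332 for Cd209a. T and NK cell genes (8) summed to 46.2 to 70.3 CPM in SP Gr-1hi and 6.19 to 9.20 in BM Gr-1hi libraries. In Gr-1lo cells these sums were also higher in SP, at 253 to 282 CPM in SP and 177 to 211 in BM for the macrophage genes, 1583 to 2568 and 477 to 1017 for the dendritic cell genes, and 16.0 to 24.3 and 1.07 to 1.45 for the T and NK cell genes. The part of any of these cells in the SP levels of the receptor genes was not tested.

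**Figure D2:**
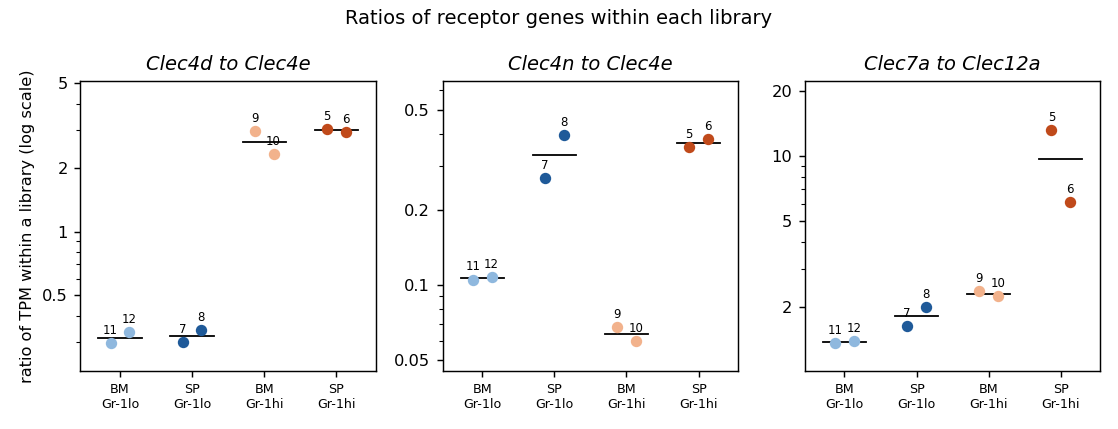
Ratios of the levels of 2 receptor genes within each library, per kilobase of exon (TPM, log scale), by group. Points are libraries with their label number and lines are group means (n = 2). Clec4d to Clec4e separates Gr-1hi from Gr-1lo libraries, Clec4n to Clec4e separates SP from BM libraries, and Clec7a to Clec12a is highest in SP Gr-1hi, where libraries 5 and 6 lie at 13.2 and 6.12.

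Clec7a, the beta-glucan receptor, had its highest level in SP Gr-1hi cells. It stood at 1074 and 833 CPM there, at 450 and 459 in BM Gr-1hi, at 171 and 227 in SP Gr-1lo and at 156 and 159 in BM Gr-1lo. The groups followed in this order, and the ranges of neighbouring groups did not overlap. In Gr-1hi cells Clec7a was 2.10-fold higher in SP than BM (log2 FC 1.07, SE 0.16, adjusted p = 0.00181 by edgeR), just past the FC of 2. The direction was the same under each alternative run, but the log2 FC fell under 1 without library 5 (0.79), 9 (0.98) or 10 (0.98), without libraries 5 and 7 (0.89), with the size factors of DESeq2 in edgeR (0.997), with DESeq2 itself (0.997), and by the exact test on quantile-normalized TPM (0.999), so that the call was kept in 9 of 16 alternatives. Gr-1lo cells differed by 0.34 (SE 0.15, adjusted p = 0.267 by edgeR), and the test of the difference between the subsets gave 0.73 (SE 0.22, adjusted p = 0.0545 by edgeR).

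Clec7a was also the most abundant of the 9 transcripts in SP, and in BM Gr-1lo cells, when levels were taken per kilobase of exon. The exon lengths pool all transcripts of a gene, 2638 bases for Clec7a and 5528 for Clec12a. By CPM, which uses no lengths, Clec12a was above Clec7a in every Gr-1lo library. Of the summed TPM of the members Clec7a made 41.6% and 35.8% in SP Gr-1hi libraries 5 and 6, 31.8% and 36.7% in SP Gr-1lo, 28.8% and 31.2% in BM Gr-1lo, and 20.6% and 22.2% in BM Gr-1hi. By TPM Clec4d came first in BM Gr-1hi, with 33.8% and 28.4%, whereas by CPM Clec4e was the highest member there. In Gr-1lo libraries Clec4a2 (18.9% to 24.2%) and Clec12a (18.3% to 22.4%), the inhibitory members, made up larger shares than in Gr-1hi libraries, where Clec4a2 had 4.70% to 15.2% and Clec12a 3.16% to 9.88%. The sum itself was 1702 to 2046 TPM in SP Gr-1hi, 1279 to 1420 in BM Gr-1hi, 615 to 679 in SP Gr-1lo and 591 to 636 in BM Gr-1lo libraries.

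**Figure D3:**
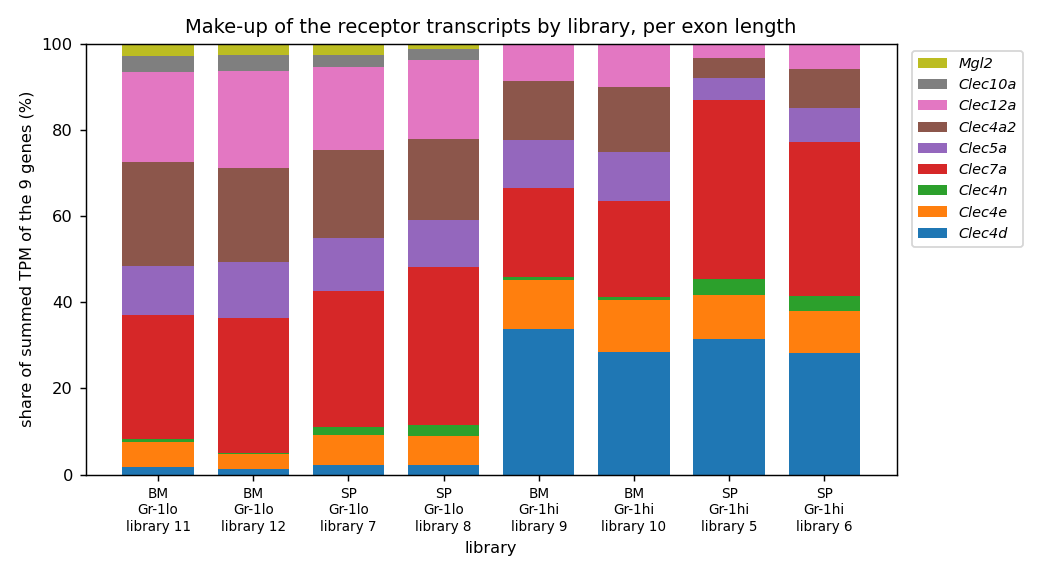
Share of each gene in the summed TPM of the 9 genes, by library (bars add up to 100%). Clec4d makes 28.3% to 33.8% in the 4 Gr-1hi libraries and at most 2.29% in the Gr-1lo libraries, and Clec7a makes 35.8% and 41.6% in SP Gr-1hi and 20.6% and 22.2% in BM Gr-1hi libraries.

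Clec5a, which signals through Tyrobp, was higher in Gr-1hi cells of both tissues, with its highest level in BM. It stood at 351 and 345 CPM in BM Gr-1hi, 194 and 262 in SP Gr-1hi, 95.4 and 97.5 in SP Gr-1lo, and 88.8 and 96.8 in BM Gr-1lo. The 2 Gr-1lo groups overlapped, and BM Gr-1hi lay above SP Gr-1hi. The Gr-1hi to Gr-1lo log2 FC was 1.91 in BM (SE 0.14, adjusted p = 2.72e-06 by edgeR) and 1.24 in SP (SE 0.13, adjusted p = 4.72e-05 by edgeR). Between SP and BM Gr-1hi cells it was 1.53-fold lower (log2 FC -0.61, SE 0.13, adjusted p = 0.00948 by edgeR), short of FC 2, and without libraries 5 and 7 the log2 FC was -0.39 with an adjusted p of 0.0513 by edgeR.

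By CPM, the inhibitory members Clec4a2 and Clec12a had their highest level in BM Gr-1hi cells. Clec4a2 stood at 331 and 348 CPM in BM Gr-1hi, 135 and 234 in SP Gr-1hi, 122 and 130 in SP Gr-1lo, and 145 and 125 in BM Gr-1lo. For Clec12a the levels were 395 and 428 CPM in BM Gr-1hi, 171 and 285 in SP Gr-1hi, 219 and 238 in SP Gr-1lo, and 238 and 239 in BM Gr-1lo. By CPM, BM Gr-1hi lay above all other libraries for both genes, the other 3 groups overlapped for Clec12a, and for Clec4a2 SP Gr-1hi overlapped BM Gr-1lo and lay above SP Gr-1lo. By TPM this held for Clec4a2, at 194 in both BM Gr-1hi libraries, but not for Clec12a. Clec12a was at 123 and 126 TPM in BM Gr-1hi and at 134 and 132 in BM Gr-1lo. Library 5 gave the lower of the SP Gr-1hi values for both genes. SP Gr-1hi was lower than BM Gr-1hi by -0.88 in log2 FC for Clec4a2 (SE 0.22, adjusted p = 0.0179 by edgeR) and by -0.85 for Clec12a (SE 0.20, adjusted p = 0.0145 by edgeR), both short of FC 2. The size of these differences moved with the SP library, since leaving out library 6 took them to -1.41 and -1.34, past FC 2, and leaving out libraries 5 and 7 took them to -0.52 and -0.51.

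The Gr-1hi to Gr-1lo contrast was weak for this pair. In BM, Clec4a2 was 2.52-fold higher in Gr-1hi cells (log2 FC 1.33, SE 0.22, adjusted p = 0.000701 by edgeR), and Clec12a 1.72-fold higher (0.79, SE 0.20, adjusted p = 0.00741 by edgeR). In SP the log2 FC was 0.55 for Clec4a2 (SE 0.22, adjusted p = 0.0520 by edgeR) and -0.00 for Clec12a (-0.0045, SE 0.20, adjusted p = 0.986 by edgeR). The direction depended on the scaling: with total counts in place of TMM factors, Clec12a was at -0.03 in BM and -0.61 in SP and Clec4a2 at -0.06 in SP. That scaling moved the median of all genes from -0.17 to -0.99 in BM and from -0.09 to -0.69 in SP, and the share of calls that were higher in Gr-1hi from 39.3% to 17.5% in BM and from 60.2% to 31.5% in SP. The direction of the other 7 members did not turn under it. Per kilobase, the ratio of Clec4a2 to Clec12a, from which scaling cancels, was 1.52 ± 0.0435 in SP Gr-1hi and 1.56 ± 0.0322 in BM Gr-1hi, against 1.04 ± 0.0167 in SP Gr-1lo and 1.07 ± 0.116 in BM Gr-1lo (SD, n = 2).

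Clec10a and Mgl2, the galactose-type lectins, were the 2 members that were higher in Gr-1lo cells. Clec10a stood at 15.7 and 17.2 CPM in SP Gr-1lo, 20.8 and 20.6 in BM Gr-1lo, 0.241 and 0.0957 in SP Gr-1hi, and 0.598 and 1.03 in BM Gr-1hi. Mgl2 stood at 11.3 and 6.26 CPM in SP Gr-1lo, 12.4 and 10.8 in BM Gr-1lo, 0.181 and 0.0957 in SP Gr-1hi, and 0.0748 and 0.0413 in BM Gr-1hi. Every Gr-1lo library lay above every Gr-1hi library for both genes. In SP the Gr-1hi to Gr-1lo log2 FC was -6.57 for Clec10a (SE 0.30, adjusted p = 7.29e-07 by edgeR) and -5.94 for Mgl2 (SE 0.44, adjusted p = 5.56e-06 by edgeR). In BM it was -4.67 for Clec10a (SE 0.25, adjusted p = 5.69e-07 by edgeR), and for Mgl2 the 2 Gr-1hi libraries held 3 counts together against 1180 in the Gr-1lo libraries, a log2 ratio of -7.62 with an exact 95% counting interval from -9.90 to -6.07.

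Clec10a in Gr-1hi cells was at 1.02% of its Gr-1lo level in SP and 3.94% in BM, and Mgl2 at 1.58% and 0.499%. For the 8 monocyte genes these shares ran from 0.0961% to 53.7% in SP and from 0.527% to 69.0% in BM. In SP and BM they were 0.0961% and 0.527% for Fn1, 0.122% and 0.541% for F13a1, 1.10% and 1.29% for Ccr2, 3.64% and 1.53% for Ms4a6c, 19.1% and 12.0% for Cx3cr1, 22.7% and 2.81% for Irf8, 45.1% and 33.9% for Csf1r, and 53.7% and 69.0% for Ly6c2. The part of monocyte RNA in the Gr-1hi levels was not tested.

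Clec10a was the member that passed as lower, by FC of 2 or more, in SP than in BM Gr-1hi cells. Its 2 SP Gr-1hi libraries held 11 counts and its 2 BM Gr-1hi libraries 41, and the ranges did not overlap. The log2 FC was -2.23 (SE 0.43, adjusted p = 0.00606 by edgeR), and -3.02 without libraries 5 and 7. An exact test on quantile-normalized TPM, in which these values are rounded to whole numbers, did not call it (adjusted p = 1). The 8 monocyte genes summed to 1067 to 1187 CPM in SP Gr-1hi and 1331 to 1766 in BM Gr-1hi libraries, and Ccr2 was at 38.6 CPM in library 10, which had the higher Clec10a value, and at 6.73 in library 9. Single monocyte genes went both ways: 2 of 8 passed as higher in SP Gr-1hi cells (Irf8 with a log2 FC of 2.63 and Csf1r with 1.05), none passed as lower, Fn1 (-3.49) and F13a1 (-2.76) did not pass, and the median was 0.33. Their part in the Clec10a difference was not tested. In Gr-1lo cells the tissues differed by -0.33 for Clec10a (SE 0.18, adjusted p = 0.351 by edgeR) and -0.42 for Mgl2 (SE 0.26, adjusted p = 0.424 by edgeR). Mgl2 in Gr-1hi cells rested on 9 counts in SP and 3 in BM, too few to compare.

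Counted over both tissues on the threshold of FC 8, 4 of the 9 members differed between Gr-1hi and Gr-1lo cells in BM, 2 higher and 2 lower, when 16.7% of all genes tested did (6.56% higher and 10.1% lower). In SP 3 members differed, 1 higher and 2 lower, when 7.37% of all genes did (4.44% higher and 2.93% lower). On the threshold used between tissues, with FC of 2 or more, the counts were 6 higher and 2 lower in BM and 5 higher and 2 lower in SP. At that rule 57.3% of all genes differed in BM (24.2% higher and 33.1% lower) and 49.6% in SP (22.3% higher and 27.4% lower). The median log2 FC of the members was 1.53 in BM and 1.24 in SP, beside -0.17 and -0.09 over all genes.

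**Figure D4:**
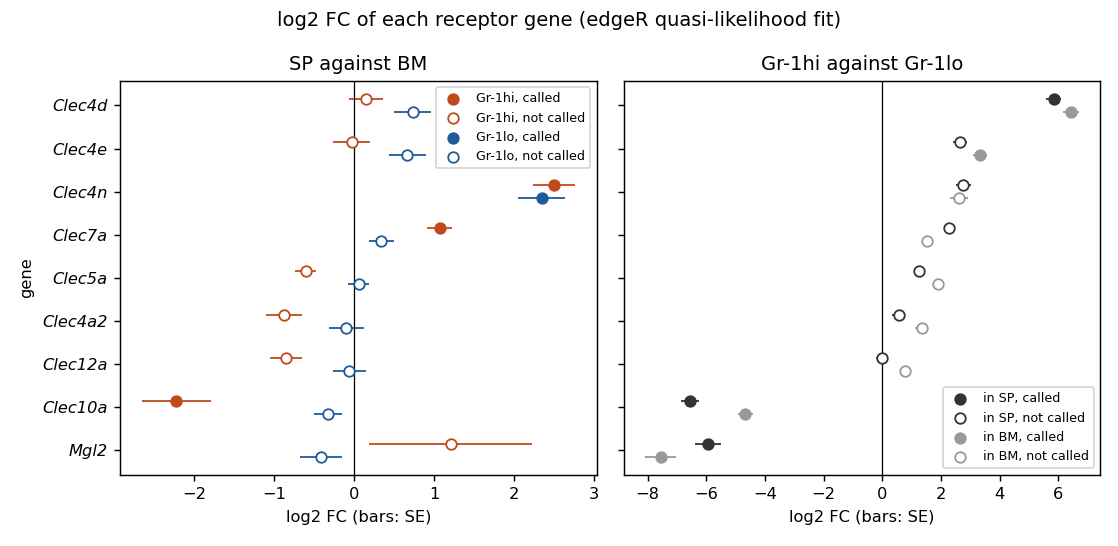
Log2 FC of each gene with its SE (bars) from the edgeR fit, SP against BM on the left and Gr-1hi against Gr-1lo on the right. Filled points passed the threshold of their comparison (FC of at least 2 on the left, above 8 on the right). Clec4n is the member that is called in both subsets on the left.

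Whether the tissue difference depended on the subset was tested for each member as the interaction of tissue and subset. On the threshold used between tissues 1 of 9 members passed, Clec10a, as lower, when 9.74% of all genes did (7.74% higher and 2.00% lower). The difference of log2 FC was -1.90 (SE 0.47, adjusted p = 0.0314 by edgeR), and it no longer passed without library 6, 7, 8, 10, 11 or 12, nor without libraries 5 and 7 (-2.75, adjusted p = 0.0513 by edgeR). For Clec5a the value was -0.67 (SE 0.19, adjusted p = 0.0456 by edgeR), short of FC 2. Values for Clec4a2 (-0.78) and Clec12a (-0.79) did not pass with all libraries, and without library 6 both did (-1.33 and -1.30).

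The genes through which these receptors signal were followed by lists. Of 10 adaptors and kinases (Fcer1g, Tyrobp, Hcst, Syk, Plcg2, Vav1, Prkcd, Card9, Bcl10 and Malt1) none passed between SP and BM in either subset. Between Gr-1hi and Gr-1lo cells 6 were higher in BM and 4 in SP at FC of at least 2, when 24.2% and 22.3% of all genes were, and none was lower. These counts rest on TMM factors. By TPM, Hcst, Tyrobp, Syk and Bcl10 were higher in every Gr-1hi than every Gr-1lo library, and Fcer1g, Vav1 and Prkcd overlapped. Lower in every Gr-1hi library by TPM were Plcg2 (179 to 200 against 223 to 234), Card9 (133 to 174 against 178 to 217) and Malt1 (6.85 to 11.3 against 14.3 to 18.4). Hcst, which encodes an adaptor of activating receptors, passed FC 8 in BM (log2 FC 3.01, SE 0.12, adjusted p = 1.74e-07 by edgeR). The most abundant by CPM were Tyrobp, at 1192 to 1433 CPM in Gr-1hi and 442 to 472 in Gr-1lo libraries, and Syk, at 882 to 1236 and 301 to 373, followed by Prkcd, a kinase between Syk and CARD9, at 522 to 832 and 336 to 437. The order differed by TPM, which uses exon lengths. Over all libraries Tyrobp was then at 2022 to 3877 and Fcer1g, the Fc receptor gamma chain, at 1049 to 1437. Syk was at 98.2 to 276 TPM and Prkcd at 188 to 258. Both Tyrobp and Syk differed by log2 FC of 1.38 to 1.63 between the subsets, and their ranges did not overlap. The median log2 FC of the list was 1.16 in BM and 0.63 in SP, against -0.17 and -0.09 over all genes. Of 3 phosphatases that bind inhibitory motifs, Ptpn6, Ptpn11 and Inpp5d, none passed in any comparison, since none reached FC 2. Between Gr-1hi and Gr-1lo cells the log2 FC in BM and SP was 0.73 and 0.74 for Ptpn6 and 0.86 and 0.54 for Inpp5d. For Ptpn11 it was 0.52 and 0.06. Except for Ptpn11 in SP, the adjusted p was below 0.01 by edgeR. These values rest on TMM factors as well.

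Of 12 genes that signalling through Syk and CARD9 is known to induce, 7 had enough counts to test, and all 7 were higher in Gr-1hi than Gr-1lo cells of both tissues at FC of at least 2. Of all genes tested 24.2% were so in BM and 22.3% in SP. These counts also rest on TMM factors, and by TPM the subsets overlapped for Nlrp3, at 35.8 to 93.8 in Gr-1hi and 35.4 to 40.4 in Gr-1lo libraries. Il1b, the interleukin-1 beta gene, had log2 FC of 7.04 in BM (SE 0.65) and 6.13 in SP (SE 0.62), and the chemokine gene Cxcl2 5.59 (SE 0.81) and 3.60 (SE 0.72). Past FC 8 were also Egr3 in BM (4.99) and SP (4.02) and Egr2 in BM (4.06). Between SP and BM, 14.0% of all genes tested passed as higher in Gr-1hi cells and 3.84% in Gr-1lo cells. Of the 7, 1 passed in Gr-1hi cells, near that share, and none in Gr-1lo cells. It was the transcription factor gene Egr3 (1.89, SE 0.49, adjusted p = 0.0215 by edgeR). Library 6 gave most of that difference, since Egr3 was at 8.95 and 29.0 CPM in SP Gr-1hi libraries 5 and 6 and at 5.64 and 4.54 in BM Gr-1hi. Tnf was lower in the interaction (-1.49, SE 0.37, adjusted p = 0.0350 by edgeR). Il6, Il10, Il12b, Il23a and Cxcl1 were not tested and stayed at or below 0.411 CPM in every library. Whether signalling by the receptors had a part in the levels of any gene of this list was not tested.

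Not all lectin genes of the Clec4 cluster followed Clec4d and Clec4e. Clec4a1 stood at 52.3 and 48.5 CPM in SP Gr-1hi, 14.9 and 17.8 in BM Gr-1hi, 175 and 202 in SP Gr-1lo, and 152 and 121 in BM Gr-1lo. Clec4a3 ran in parallel, with 69.5 and 51.0, 16.0 and 16.6, 165 and 173, and 138 and 103 CPM in the same groups. Both were thus lower in Gr-1hi than Gr-1lo cells, with log2 FC in BM of -3.06 (SE 0.15, adjusted p = 3.97e-07 by edgeR) and -2.89 (SE 0.19, adjusted p = 1.75e-06 by edgeR), whereas Clec4a2, Clec4n, Clec4d and Clec4e were higher there. Both were also higher in SP than BM Gr-1hi cells, by 1.63 (SE 0.14) and 1.89 (SE 0.18), where Clec4a2 was lower, and both passed the interaction test (1.16 and 1.40). Both belong to a list of 20 other lectin receptor genes, of which 17 were tested.

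Over that list, 6 genes were higher in SP than BM Gr-1hi cells (Cd302, Clec12b, Clec1a, Clec4a1, Clec4a3 and Klrb1b) and 1 in Gr-1lo cells (Klrb1b), and none was lower. Of all genes tested, 14.0% were higher and 1.48% lower in the Gr-1hi comparison, and 3.84% and 0.215% in the Gr-1lo comparison. Between the subsets 3 passed FC 8 as higher in Gr-1hi cells in BM (Clec12b, Clec1b and Ly75) and 2 in SP (Clec12b and Clec1b). Lower past FC 8 were Cd302 and Clec4a1 in BM and Cd302 in SP, and Cd302, which encodes a lectin of macrophages and dendritic cells, fell by 5.09 in log2 FC in BM (SE 0.25). At that threshold 6.56% of all genes were higher and 10.1% lower in BM, and 4.44% and 2.93% in SP. The median log2 FC of the tested 17 between SP and BM Gr-1hi cells was 0.86, beside -0.03 for the 9 members and 0.03 over all genes tested.

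Other genes of the table came close to each member in pattern. The highest Pearson r of log2 CPM over the 8 libraries was with Arg2 for Clec4d, Rnf41 for Clec4e, Ncf1 (a subunit of the NADPH oxidase) for Clec5a, Trim30d for Clec7a, Ube2j1 for Clec4a2, Rad17 for Clec12a, Rap2b for Clec10a and Bud23 for Mgl2, with r of 0.9924 to 0.9995. Such values describe 8 points that fall into 4 groups and share depth and scaling.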

How the data were processed

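RNA of 8 libraries was sequenced with a stranded mRNA kit. The authors aligned the reads to GRCm38 with STAR and deposited unnormalized counts per gene made with featureCounts. Tests were run with edgeR 4.0.16 in R 4.3.3 on genes kept by filterByExpr (17650 of 54188), with TMM scaling, 1 robust quasi-likelihood fit over all libraries (4 residual degrees of freedom) and Benjamini-Hochberg adjustment over all genes tested. Calls between SP and BM needed an adjusted p up to 0.05 and FC of 2 or more, and calls between Gr-1hi and Gr-1lo cells an adjusted p below 0.01 and FC above 8. SE was derived from the F statistic. TPM used union exon lengths (GENCODE). Intervals cover counting error only. The method was tested on simulated data. Alternatives were RLE and upper-quartile scaling, no filter, DESeq2 1.42.0, an exact test on quantile-normalized TPM, fits of the 4 libraries compared, libraries left out and, chosen after seeing the data, total-count scaling. All members were named, and from the lists those called or among the 3 most abundant, and the gene most alike to each member. Other list genes were named after their values were seen. The members and lists were chosen with earlier results of these data known.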

Additional observations from a re-analysis of the deposited data

Results flagged for a closer look

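In 2 members the interaction test of tissue and subset by edgeR gave an adjusted p up to 0.05, and Clec5a among them stayed short of FC 2. The Clec10a call was kept in 7 of 14 alternatives, and its Gr-1hi levels rested on 11 counts in SP and 41 in BM. Clec10a had an interaction of -1.90 in log2 (adjusted p = 0.0314 by edgeR): SP Gr-1hi cells had 0.168 ± 0.103 CPM and BM Gr-1hi cells 0.815 ± 0.307 (SD, n = 2), while Gr-1lo cells had 16.4 ± 1.10 CPM in SP and 20.7 ± 0.113 in BM. Clec5a had an interaction of -0.67 (adjusted p = 0.0456 by edgeR): 228 ± 48.2 CPM in SP and 348 ± 4.67 in BM Gr-1hi cells, and 96.4 ± 1.45 in SP and 92.8 ± 5.70 in BM Gr-1lo cells (SD, n = 2). Without libraries 5 and 7 the adjusted p was 0.0513 for Clec10a and 0.138 for Clec5a by edgeR.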

How the results depend on the processing

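Clec4n between SP and BM, Clec4d between the subsets, and Clec10a and Mgl2 between the subsets kept their direction and their call under every alternative run. Of the members called between SP and BM Gr-1hi cells (3), 1 was left by the exact test on quantile-normalized TPM, and the count ran from 2 to 5 when single libraries were left out (5 without library 6). In Gr-1lo cells the count of 1 ran from 1 to 2 (2 without library 11, when Clec4e passed at 1.13). The interaction count of 1 fell to 0 without libraries 5 and 7 and ran from 0 to 2 when single libraries were left out.

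Small differences changed sign. Between SP and BM Gr-1hi cells, Clec4d ran from -0.107 to 0.252 when single libraries were left out (below 0 without library 5 or 10), and Clec4e from -0.249 to 0.0122 (above 0 without library 6), with 0.046 under upper-quartile scaling, 0.0292 by the exact test and 0.177 with total counts. In Gr-1lo cells, with single libraries left out, Clec4a2 ran from -0.2003 to 0.0114 (above 0 without library 11), Clec5a reached -0.0051 (without library 11, and -0.0013 with RLE factors and with DESeq2) and Clec12a ran from -0.12 to 0.0015 (above 0 without library 7). Between the subsets in SP, Clec12a was at 0.12 with RLE factors and with DESeq2, 0.0678 with upper-quartile scaling, between -0.4445 and 0.294 with single libraries left out (above 0 without library 5 or 8) and 0.237 without libraries 5 and 7, and Clec4a2 at -0.0598 with total counts. In BM Clec12a was at -0.0269 with total counts, and Clec4e, at 2.51, then missed FC 8. The interaction of Clec4n ran from -0.288 to 0.556 (below 0 without library 5, 7, 10 or 11) and was at -0.198 without libraries 5 and 7. The cause of these changes was not tested. Over all genes, the calls of 2727, 716, 2946 and 1301 in the 4 comparisons were 667, 269, 1380 and 648 by the exact test, and 1077 in place of 716 with no filter. With single libraries left out, calls between SP and BM ran from 1715 to 3518 in Gr-1hi and from 389 to 785 in Gr-1lo cells, and interaction calls (1719) from 915 to 2488 and to 819 without libraries 5 and 7. The share of interaction calls that were higher went from 79.5% to 90.1% with total counts.

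Depth limited Clec10a and Mgl2 in Gr-1hi cells, which rested on 3 to 41 counts per group, and the other members had 55 or more counts in every library. No paired analysis was possible because the labels number the libraries from 5 to 12, no number is shared by 2 groups, and nothing in the labels ties an SP library to a BM library of the same mouse.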
